A study of Mus musculus with 12 samples.

Results

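The genes described here build, fold and quality-check proteins that enter the endoplasmic reticulum (ER). They were chosen by name, as the listed members of the ER translocon, signal peptidase, chaperone and unfolded protein response families. Of 37 listed genes, 36 had a probe set that named no other gene, out of 12393 such genes on the array. The missing member was Sec61g, the small subunit of the translocon, whose probe set names several genes. The 36 members were read by 81 probe sets, and 22 members had more than 1.

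RNA was measured on 12 single-color arrays. The study compared lactating mammary gland, mammary tumors and tumor-derived lines in a mouse model of breast cancer. All mice were female and of the NMRI strain. 3 arrays held glands of NMRI mice without a transgene, and 3 held glands of WAP-SVT/t mice, all collected on day 1 of lactation. Per the labels, WAP-SVT/t mice make the SV40 T/t antigens, oncoproteins of a monkey virus, in the epithelial cells of the mammary gland only. The name refers to Wap, a milk protein gene whose promoter is active in late pregnancy and lactation. 3 further arrays held WAP-SVT/t breast tumors. The last 3 held breast cancer cell lines, with 1 array per line: ME-A, the line ME-B, which the labels call revertant, and ME-B-T/t, which they call retransformed. Nothing in the labels says whether glands were pooled, and p-values therefore measure the spread between these samples only.

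A lactating mammary epithelial cell secretes large amounts of casein and whey protein, and all of it passes the ER. Nascent chains are guided to the membrane by the signal recognition particle (SRP) and threaded through the Sec61 channel. Signal peptidase then cuts them, chaperones and disulfide isomerases fold them, and coat proteins pack them into vesicles. When unfolded protein collects, 3 membrane sensors, Ire1, Atf6 and Perk, start the unfolded protein response. Ire1 splices the Xbp1 mRNA into the form that makes an active transcription factor, Atf6 is cut into one, and Perk slows translation while that of Atf4 goes on. Xbp1 is also known for the growth of the secretory apparatus in plasma cells and gland cells.

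Signals are in intensity units, with arrays brought to 1 common scale. They compare samples for 1 probe set and cannot rank genes against each other. In bulk RNA, fewer cells of a type and less RNA per cell cannot be told apart. The glands and tumors carried the markers of their labels. Csn2 and Wap, the milk protein genes, read 11933 to 13953 and 14797 to 16636 in the NMRI glands, respectively. In the WAP-SVT/t glands Csn2 read 7738 to 11651 and Wap 1603 to 6362, and in the tumors Csn2 read 133 to 2540 and Wap 90.3 to 119. The luminal keratin gene Krt18 lay between 3326 and 8405 on all 9 tissue arrays. In ME-A it read 2392. Both ME-B lines lacked it, with 40.5 in ME-B and 55.0 in ME-B-T/t, both below the floor of 57.4, and their Epcam signals were 9.05 and 13.2, against 5306 in ME-A. Vim, a mesenchymal filament gene, read 11495 in ME-B, 10769 in ME-B-T/t and 481 in ME-A. The 2 ME-B lines thus lacked defining epithelial markers.

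Markers of other cell types were read as well. Apart from the milk protein genes, and the adipocyte genes in tumors, the sums overlapped between tissue groups. The 15 milk protein genes summed to between 172600 and 203240 in NMRI glands, 73811 and 83019 in WAP-SVT/t glands and 15596 and 24979 in tumors. For the 11 measured luminal genes, of 12 listed, the sums were 31576 to 47251, 31429 to 34211 and 24109 to 32709. Plasma cells carry much Xbp1. Their 11 measured genes, of 14, summed to 5362 to 7386, 3650 to 10483 and 1882 to 5544, and the defining gene Jchain read 1122 to 2472, 1119 to 2841 and 159 to 1028. The 16 skeletal muscle genes summed to 14225 to 29644 in NMRI glands. In the other tissue groups they were low on all arrays except WAP-SVT/t gland 3 and tumor 1, over ranges of 1581 to 28755 and 451 to 16163. The 10 measured adipocyte genes, of 12, summed to 21075 to 26854 in NMRI glands, 21180 to 37732 in WAP-SVT/t glands, 1941 to 9982 in tumors and 987 to 1209 in lines. The 14 macrophage genes summed to 11827 to 18528, 11903 to 24107, 15353 to 18702 and 1172 to 3356 in the same order. For the 15 fibroblast and matrix genes the sums were 22990 to 30379, 27469 to 47071, 20840 to 45993 and 9585 to 55510. The 3-prime to 5-prime ratio of the Gapdh control, a measure of RNA integrity that is near 1 for intact RNA, was 12.9, 2.28 and 40.3 in NMRI glands 1, 2 and 3 and 10.7, 2.49 and 22.5 in WAP-SVT/t glands 1, 2 and 3. In tumors it was 5.63, 0.982 and 0.969, and in the lines 0.753 to 0.949. The part of cell content in the results below was not tested.

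The first comparison asks whether the ER genes differ between glands with and without the transgene at the same day of lactation. In WAP-SVT/t glands 6 of 36 members fell and 0 rose, by limma with Benjamini-Hochberg adjustment over all 7899 genes tested (adjusted p under 0.05). The 6 were Ssr4, Sec63 and Sec61a1 of the translocon, the cochaperone Dnajb9 and the transcription factors Xbp1 and Atf4. That is 16.7% of the members, where 4.05% of all genes tested were called lower and 6.09% higher. At an unadjusted p under 0.05 there were 10 members, 27.8%, close to the 26.2% of all genes. The median log2 difference, WAP-SVT/t gland minus NMRI gland, was -0.38 over the members and 0.01 over all genes, and 29 of 36 members lay below 0, as they did with quantile normalization and without scaling. The 3 WAP-SVT/t glands lay below all 3 NMRI glands in 11 members, 30.6%, and above them in 1 member, 2.78%. Over all genes these shares were 14.8% and 16.4%.

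**Figure D1:**
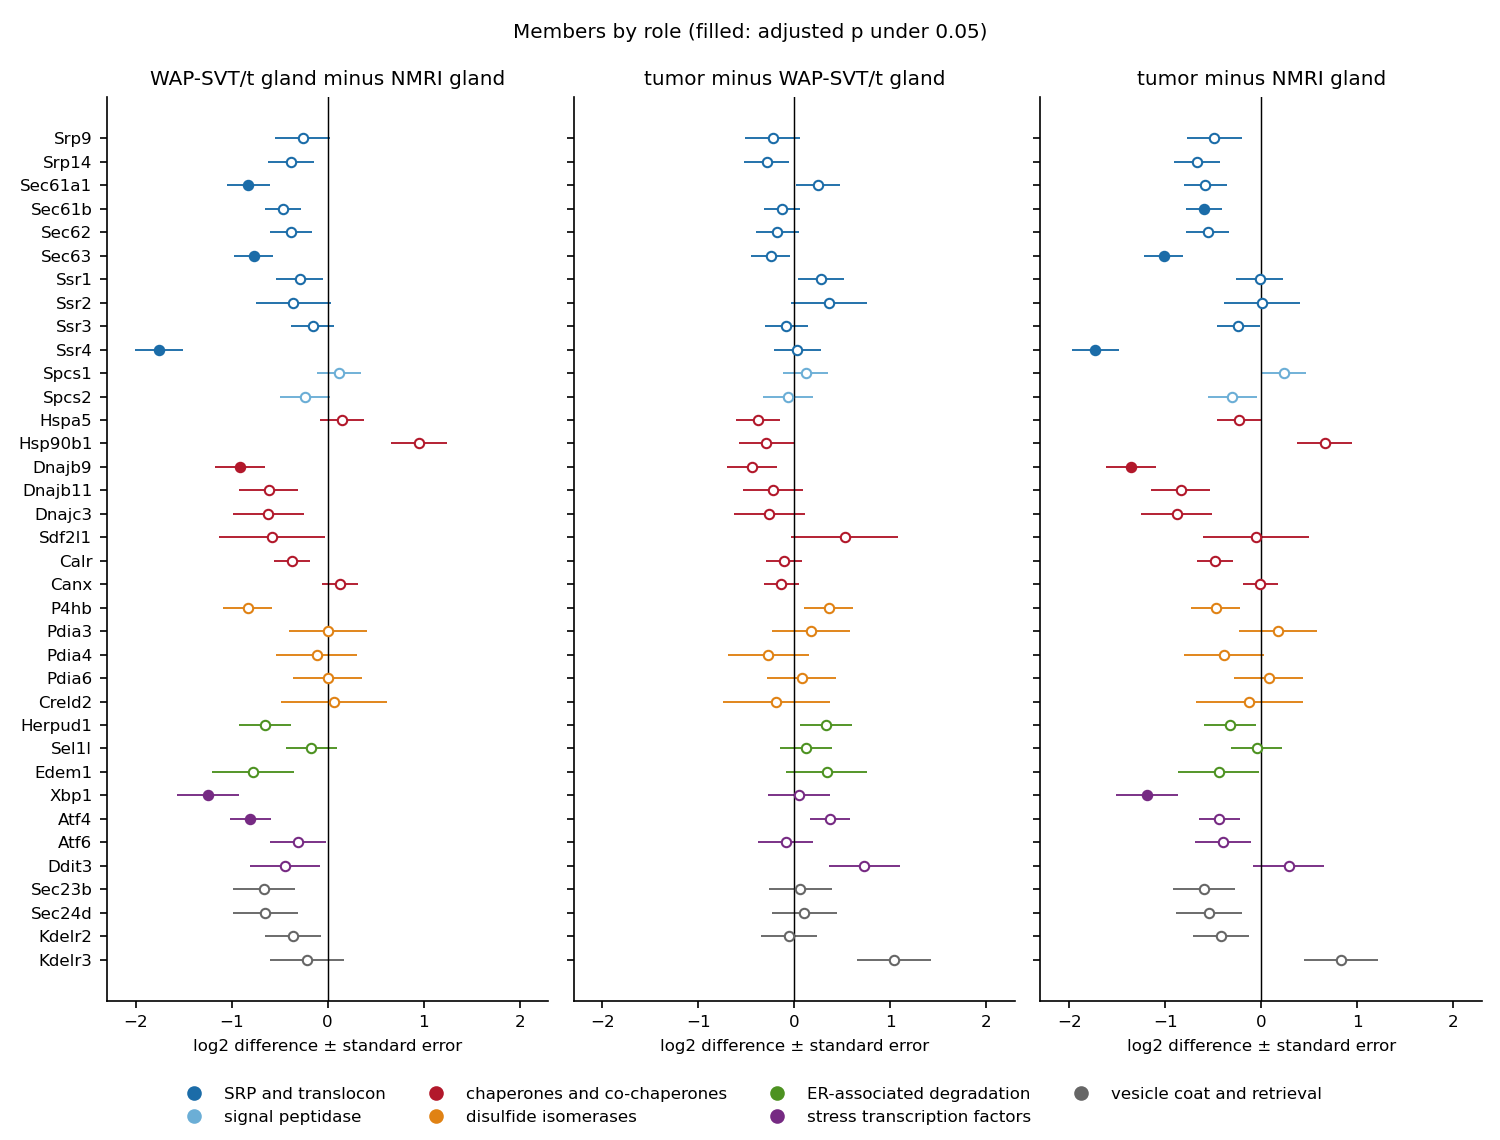
Log2 differences (x axis, ± standard error, limma, 3 arrays per group) of the 36 members (y axis), colored by role, for the 3 tissue comparisons. Filled points pass an adjusted p of 0.05: 6 members in WAP-SVT/t against NMRI glands, 0 in tumors against WAP-SVT/t glands and 5 in tumors against NMRI glands, all of them to the left of 0.

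All 10 measured SRP and translocon members had a log2 difference below 0 in WAP-SVT/t glands, from -1.76 to -0.15, and 3 passed. The direction held under all 3 scalings, for the probe set that stands for each gene. Another tested probe set lay above 0 for Srp9, Sec62, Ssr1 and Ssr4, at 0.23, 0.19, 0.05 and 0.04, and none of these passed. Ssr4 codes for the delta subunit of the translocon-associated protein complex, which sits beside the Sec61 channel. Its signal was 7028, 6120 and 6108 in NMRI glands 1, 2 and 3, 2672, 1705 and 1490 in WAP-SVT/t glands 1, 2 and 3 and 1760, 2425 and 1692 in tumors 1, 2 and 3. All NMRI glands were far above every other tissue array. Ssr4 fell by 1.76 ± 0.25 on the log2 scale, 3.38-fold (limma, adjusted p = 0.00103). Its adjusted p stayed between 0.00062 and 0.0078 when any 1 of the 9 tissue arrays was left out. The size of its fall differed between probe sets: the 2 other probe sets gave log2 differences of -0.65 ± 0.23 (limma, adjusted p = 0.104) and 0.04 ± 0.27 (limma, adjusted p = 0.943). With the mean over its probe sets the difference was -0.79 (limma, adjusted p = 0.0447).

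The other complex subunits Ssr1, Ssr2 and Ssr3 did not pass, with log2 differences of -0.29, -0.36 and -0.15 and overlapping groups. Sec63, a membrane protein that brings the chaperone Hspa5 to the channel, read 710, 660 and 672 in NMRI glands 1, 2 and 3, 417, 385 and 395 in WAP-SVT/t glands 1, 2 and 3 and 333, 369 and 309 in tumors 1, 2 and 3. The groups were tight and did not overlap. Sec63 fell by 0.77 ± 0.20 on the log2 scale, 1.71-fold (limma, adjusted p = 0.0336). Its 3 other probe sets gave log2 differences of -0.88, -0.83 and -0.33, and none of them passed.

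Sec61a1, the channel subunit itself, read 3109, 2629 and 2453 in NMRI glands 1, 2 and 3, 1692, 1651 and 1287 in WAP-SVT/t glands 1, 2 and 3 and 2156, 1929 and 1439 in tumors 1, 2 and 3. The WAP-SVT/t glands were all below the NMRI glands, with tumors between or at the lower end. It fell by 0.83 ± 0.22 on the log2 scale, 1.77-fold (limma, adjusted p = 0.0400), and 4 other tested probe sets, with differences of -1.01 to -0.22, did not pass. Sec61b, the beta subunit, and Sec62, which works with Sec63, had no overlap between the groups either, at log2 differences of -0.47 (limma, adjusted p = 0.144) and -0.38 (limma, adjusted p = 0.308). The SRP subunits Srp9 and Srp14 overlapped between groups.

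Signal peptidase showed no call. Spcs1 and Spcs2, its accessory subunits, had log2 differences of 0.12 ± 0.23 and -0.23 ± 0.26, with overlapping groups. The other probe set of Spcs2 had no overlap, at -0.97 ± 0.28, and did not pass (limma, adjusted p = 0.0537).

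**Figure D2:**
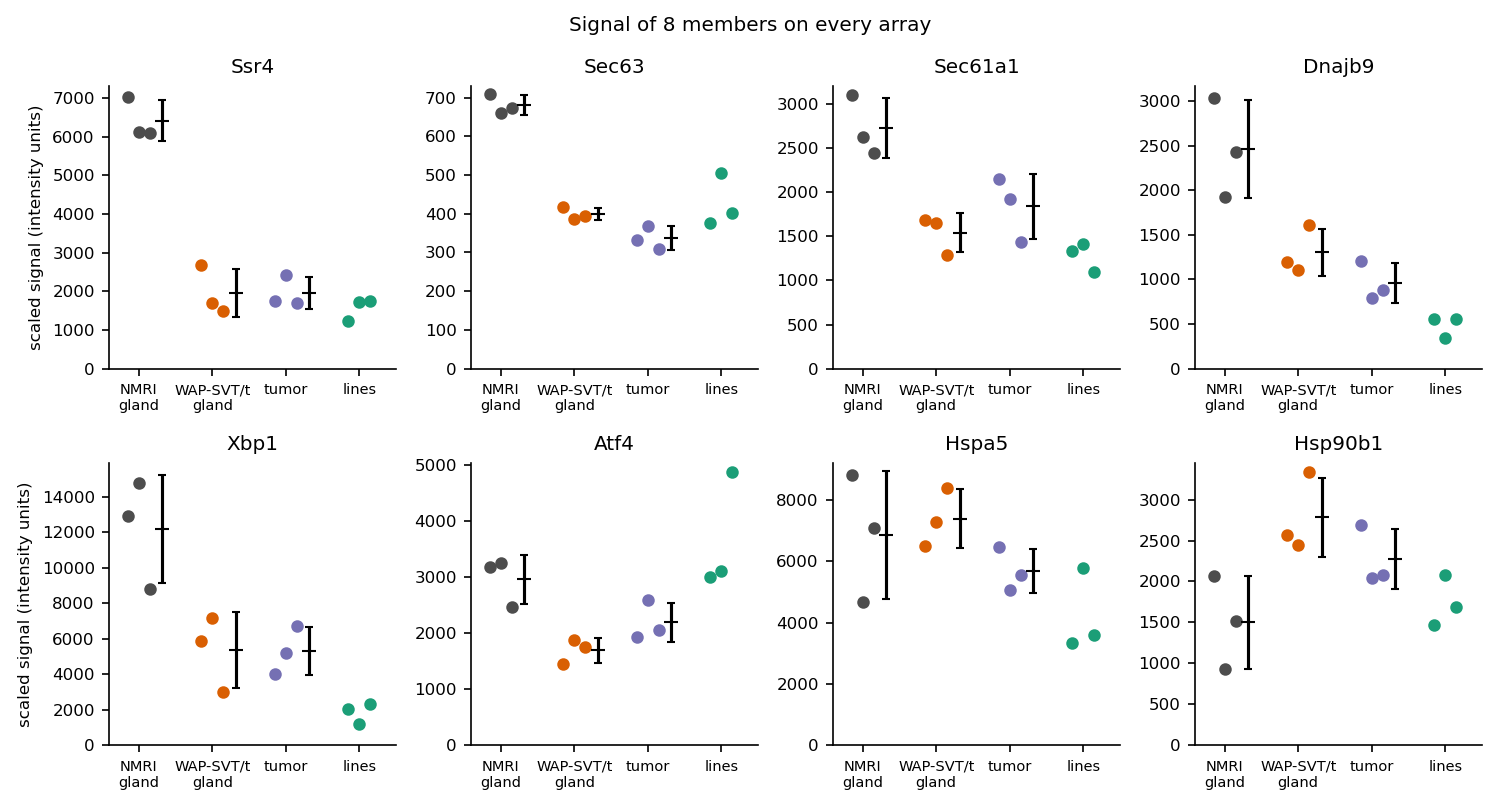
Scaled signal (y axis, intensity units, from 0) of 8 members on every array, in NMRI glands, WAP-SVT/t glands, tumors and the lines (from left ME-A, ME-B, ME-B-T/t). Points are arrays in numerical order, and black bars the mean ± SD of 3 arrays. Ssr4, Sec63, Sec61a1, Dnajb9, Xbp1 and Atf4 were lower in all WAP-SVT/t glands than in any NMRI gland, Hsp90b1 was higher, and Hspa5 overlapped.

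Among the chaperones, 1 of 8 fell. Dnajb9, a cochaperone of Hspa5 also known to hold Ire1 inactive, read 3036, 1928 and 2427 in NMRI glands 1, 2 and 3, 1200, 1110 and 1606 in WAP-SVT/t glands 1, 2 and 3 and 1212, 794 and 878 in tumors 1, 2 and 3. Every NMRI gland was above every other tissue array. The difference in WAP-SVT/t glands was -0.91 ± 0.26 on the log2 scale, 1.88-fold lower, and it passed by a narrow margin (limma, adjusted p = 0.0499). Hspa5 (BiP), the main ER chaperone of the Hsp70 family, read 8823, 4673 and 7088 in NMRI glands 1, 2 and 3, 6498, 7284 and 8401 in WAP-SVT/t glands 1, 2 and 3 and 6455, 5050 and 5539 in tumors 1, 2 and 3. NMRI glands spanned all the values of the tumors, and the log2 difference between the glands was 0.15 ± 0.23 (limma, adjusted p = 0.730).

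Hsp90b1 (Grp94), the ER member of the Hsp90 family, was the only member with all 3 WAP-SVT/t glands above all 3 NMRI glands. It read 2064, 924 and 1521 in NMRI glands 1, 2 and 3 and 2565, 2451 and 3335 in WAP-SVT/t glands 1, 2 and 3. The log2 difference of 0.95 ± 0.29 did not pass (limma, adjusted p = 0.0617). With the gland number as a block it did (limma, adjusted p = 0.0341), as it did with quantile normalization, without scaling and without NMRI gland 1 (limma, adjusted p = 0.0385, 0.0303 and 0.0363). Its other probe set gave 0.45 ± 1.16. Calr, a lectin chaperone for glycoproteins, was lower in every WAP-SVT/t gland with a log2 difference of -0.37 ± 0.19 (limma, adjusted p = 0.226). Each of its 2 other probe sets passed on its own, at -0.71 and -0.69 (limma, adjusted p = 0.0292 and 0.0401). Its membrane-bound relative Canx overlapped, at 0.13 ± 0.19, and so did Dnajb11, Dnajc3 and Sdf2l1, which assist Hspa5, at -0.62, -0.62 and -0.58.

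Several of the chaperones share a promoter element. The members were chosen by name and not by sequence. They were chosen as chaperone and unfolded protein response genes, however, so the share holding this element is not an independent result. The ER stress response element, ERSE, is a CCAAT box and the letters CCACG with 9 bases between them, and Atf6 and Xbp1 are known to bind there together with the CCAAT factor. RefSeq promoters of GRCm38.p6 were matched by symbol for 33 of the 37 listed genes and searched over the 250 bases before the start, on both strands. 7 of 33 members, 21.2%, held an ERSE, against 0.13% of 27025 genes (35 genes). They were 5 of the 8 chaperones and 2 of the 5 isomerases, and Dnajb9, Dnajb11 and Sdf2l1 were searched without a match. The matches are shown as what these members share in sequence. The stretches read 5′ to 3′ on the gene's strand, with the letters of each element, or of its reverse complement, in capitals:
Hspa5 (chr2:34771921-34772055, plus strand): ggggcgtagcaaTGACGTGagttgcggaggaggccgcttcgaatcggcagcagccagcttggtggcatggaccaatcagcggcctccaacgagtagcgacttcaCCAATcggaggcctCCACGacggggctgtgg
Hsp90b1 (chr10:86705521-86705668, minus strand): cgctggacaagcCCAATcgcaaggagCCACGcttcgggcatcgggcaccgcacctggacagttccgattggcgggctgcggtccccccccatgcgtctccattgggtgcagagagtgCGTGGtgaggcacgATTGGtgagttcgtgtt
Calr (chr8:84847063-84847105, minus strand): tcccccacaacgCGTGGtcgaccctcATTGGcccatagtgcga
Canx (chr11:50325788-50325830, minus strand): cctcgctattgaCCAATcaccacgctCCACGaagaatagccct
Dnajc3 (chr14:118937815-118937857, plus strand): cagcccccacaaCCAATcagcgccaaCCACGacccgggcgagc
Pdia6 (chr12:17266479-17266521, plus strand): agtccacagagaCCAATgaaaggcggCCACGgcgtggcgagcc
Creld2 (chr15:88819508-88819550, plus strand): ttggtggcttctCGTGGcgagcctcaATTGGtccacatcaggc
Hspa5 holds 1 exact copy and Hsp90b1 holds 2, in opposite orientations. The capitals TGACGTG in Hspa5 are the core of the unfolded protein response element, which 9.09% of members and 1.85% of all genes held, the others being Sec24d and Kdelr3.

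Of the 7 members with an ERSE, 0 passed in WAP-SVT/t against NMRI glands by limma (1, Hsp90b1, at an unadjusted p under 0.05). This count depends on the probe set that stands for the gene. The other probe sets of Calr, 1 of the 7, passed as lower, at -0.71 and -0.69 (limma, adjusted p = 0.0292 and 0.0401). The log2 differences of the 7 ran from -0.62 to 0.95 with a median of 0.06. The 29 other members had a median of -0.44 and held all 6 calls, but 4 of them (Sec61a1, Ssr2, Atf6 and Kdelr2) had no promoter entry and were not searched. None of Ssr4, Sec63, Xbp1, Atf4 and Dnajb9 had these letters in the window searched. This split was seen after the values were known, was not tested, and a match is a run of letters and not a measured binding site.

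The 5 disulfide isomerases, which form and reshuffle disulfide bonds, had no call. P4hb, which also serves collagen prolyl hydroxylase, read 7003, 7442 and 5501 in NMRI glands 1, 2 and 3 and 4324, 4909 and 2392 in WAP-SVT/t glands 1, 2 and 3, with no overlap. Its log2 difference was -0.83 ± 0.26 (limma, adjusted p = 0.0640). It passed with the gland number as a block (limma, adjusted p = 0.0138) and without WAP-SVT/t gland 2 (limma, adjusted p = 0.0405). Pdia3, Pdia4, Pdia6 and Creld2 lay between -0.11 and 0.06 with wide overlap.

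The spread behind these values was not even. NMRI gland 1 had the highest signal of all 9 tissue arrays in 26 of 36 members, while over all genes it was highest in 12.7%. In 5 members gland 1 was at least 2-fold above both other NMRI glands: Sdf2l1, Creld2, Dnajc3, Pdia4 and Sec23b. Sdf2l1 read 1313 there against 350 and 212 in NMRI glands 2 and 3, and Creld2 read 2129 against 483 and 380. Dnajc3 read 2581 against 1025 and 860. Sec23b read 3255 against 1522 and 1300. The log2 SD of the members in NMRI glands ran from 0.00901 to 1.36 with a median of 0.399, against medians of 0.282 in WAP-SVT/t glands and 0.234 in tumors.

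**Figure D3:**
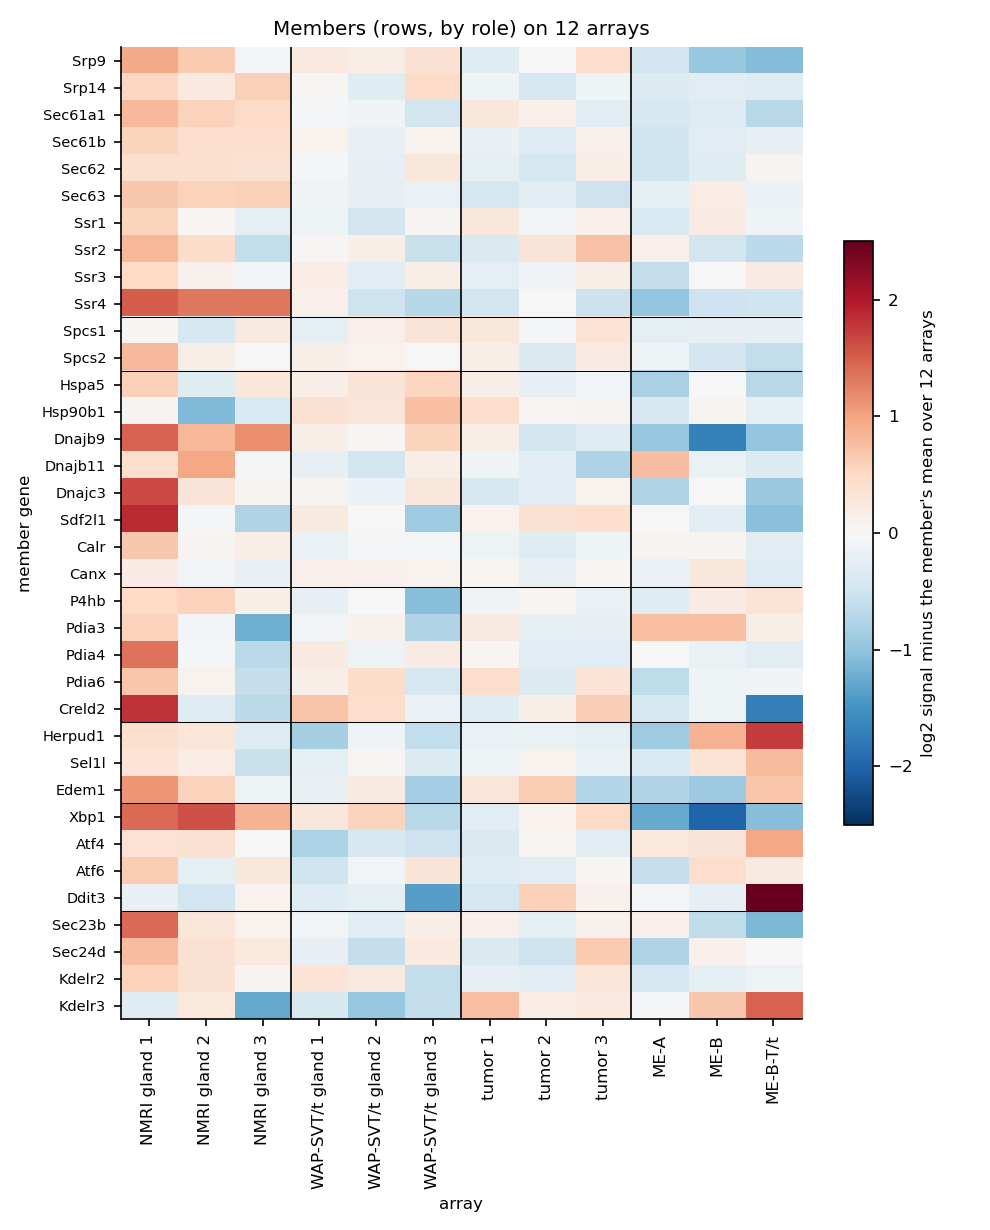
Log2 signal of each member (rows, grouped by role) on each of the 12 arrays (columns), as the difference from the member's mean over the 12 arrays; signals under the floor of 57.4 are set to it. NMRI gland 1 is the highest tissue array in 26 of 36 members, Ssr4 and Xbp1 are high in all 3 NMRI glands, and Ddit3 is highest in ME-B-T/t.

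Of ER-associated degradation, 0 of 3 members passed. Herpud1, which organises the degradation complex at the membrane, Sel1l, its adaptor, and Edem1, which hands misfolded glycoproteins to it, had log2 differences of -0.65, -0.17 and -0.78, with overlapping groups (limma, unadjusted p of 0.0343, 0.545 and 0.0935). A further probe set of Sel1l passed on its own at -0.93 (limma, adjusted p = 0.0391).

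Both called transcription factors were lower. Xbp1 read 12900, 14802 and 8824 in NMRI glands 1, 2 and 3, 5874, 7181 and 3001 in WAP-SVT/t glands 1, 2 and 3 and 4030, 5177 and 6739 in tumors 1, 2 and 3. The lowest NMRI gland lay above the highest of the others. Xbp1 fell by 1.24 ± 0.32 on the log2 scale, 2.37-fold (limma, adjusted p = 0.0327), and all 4 of its probe sets passed on their own, with log2 differences of -1.97, -1.24, -1.13 and -0.98. The array does not separate spliced from unspliced Xbp1. Atf4 read 3172, 3249 and 2456 in NMRI glands 1, 2 and 3, 1444, 1878 and 1748 in WAP-SVT/t glands 1, 2 and 3 and 1934, 2582 and 2050 in tumors 1, 2 and 3. WAP-SVT/t glands were lowest and tumors reached into the NMRI range. Atf4 fell by 0.81 ± 0.21 on the log2 scale, 1.75-fold (limma, adjusted p = 0.0357), while its other tested probe set gave -0.01 ± 0.26. Atf6 was at -0.31 and overlapped. Ddit3 (Chop), a factor induced late in ER stress and linked to cell death, read 189, 154 and 229 in NMRI glands 1, 2 and 3, 172, 186 and 82.9 in WAP-SVT/t glands 1, 2 and 3 and 160, 325 and 233 in tumors 1, 2 and 3, with overlap throughout. It did not pass in any tissue comparison.

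**Figure D4:**
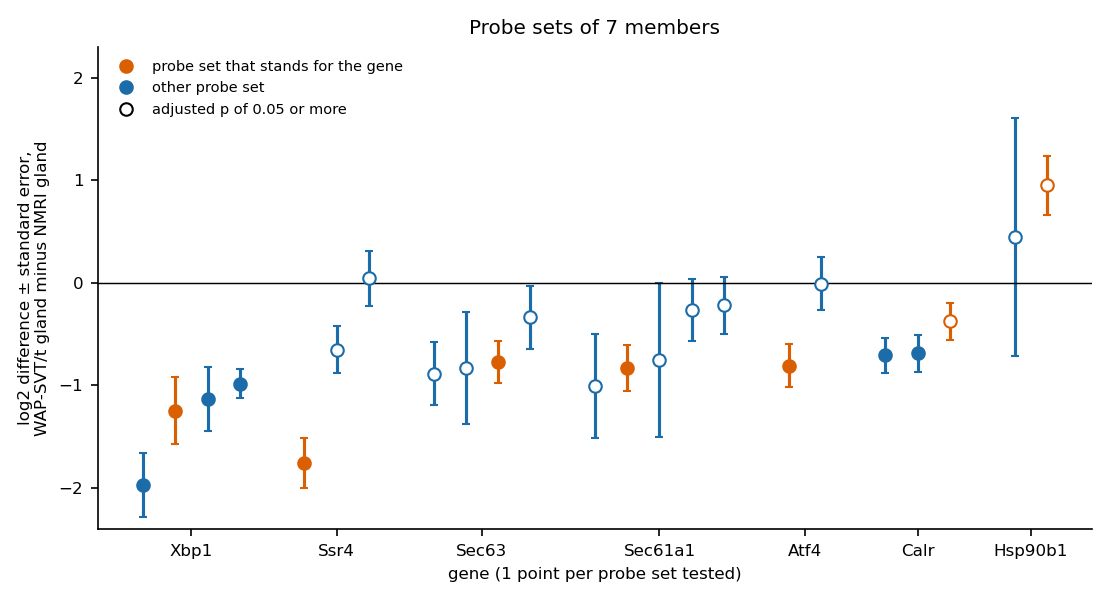
Log2 difference (y axis, ± standard error, WAP-SVT/t gland minus NMRI gland, limma on single probe sets) of each tested probe set of 7 members (x axis). All 4 Xbp1 probe sets lie between -1.97 and -0.98 and are filled (adjusted p under 0.05), while the Ssr4 and Atf4 sets that stand for the gene are filled and the others of these genes are not.

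The coat subunits Sec23b and Sec24d, which form vesicles leaving the ER, and Kdelr2 and Kdelr3, which return escaped ER proteins, had log2 differences of -0.66, -0.65, -0.36 and -0.21, and 0 of 4 passed (limma, 0 at an unadjusted p under 0.05). Only Sec24d had no overlap between the groups.

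The count of 6 fell when any 1 gland was left out, which leaves fewer arrays in its group. The count over all genes, 801 in the main fit, fell as well. Without NMRI gland 1, 2 or 3 there were 2, 1 and 3 members, and 394, 429 and 637 of all genes. Without WAP-SVT/t gland 1, 2 or 3 there were 1, 3 and 2 members, and 573, 616 and 741 of all genes. The 2 members without NMRI gland 1 were 1 lower, Ssr4, and 1 higher, Hsp90b1. Without tumor 1, 2 or 3 the count of members was 5, 4 and 5. Over these 9 fits Ssr4 passed in 9, Xbp1 in 5, Atf4 in 4 and each of Sec63, Sec61a1 and Dnajb9 in 2. Xbp1 did not pass without NMRI gland 1 or 2 or WAP-SVT/t gland 1 or 3, with adjusted p up to 0.126 by limma. Under 12 other alternatives Ssr4 passed in all. Xbp1 did not pass in 2 of them, quantile normalization and no filter on low signals (limma, adjusted p = 0.130 and 0.123), Sec63 in 4, Atf4 in 5, Sec61a1 in 7 and Dnajb9 in 9. With the Gapdh ratio as a covariate, chosen after seeing the data, 8 members passed: the same 6, P4hb as lower and Hsp90b1 as higher.

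Wider lists of the same pathway were counted too, beside the 4.05% of all genes called lower and the 6.09% called higher. Of 20 tested further SRP, receptor and translocon genes 3 fell and 0 rose: Srpr and Srprb, the SRP receptor, 2.19-fold and 2.22-fold, and Tram1, 2.37-fold (limma, adjusted p = 0.00572, 0.0229 and 0.0131). Of 56 vesicle coat and cargo genes 7 fell and 0 rose, led by Arfgap3, 5.32-fold, Tmed3, 2.46-fold, and the cargo receptor Surf4, 2.34-fold (limma, adjusted p = 0.00012, 0.00225 and 0.0121). Of 28 further degradation genes 4 fell and 0 rose, with Edem2, 4.30-fold, H13, 3.08-fold, and Selenos, 1.77-fold, at the smallest p (limma, adjusted p = 0.0123, 0.0246 and 0.0417). The shares called lower in these 3 lists were 15%, 12.5% and 14.3%, and the median log2 differences -0.33, -0.36 and -0.56.

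Of 33 other folding enzymes 4 fell and 2 rose, with a median of -0.20. The 3 with the smallest p were the collagen lysyl hydroxylase Plod2, 2.90-fold higher, the oxidoreductase Erp44, 2.22-fold lower, and the sulfhydryl oxidase Qsox1, 2.75-fold lower (limma, adjusted p = 0.00312, 0.00584 and 0.00908). Of 25 N-glycosylation genes 1 fell, Alg9, and 1 rose, Tusc3, 1.74-fold and 2.00-fold (limma, adjusted p = 0.0385 and 0.0480). Of 21 further sensors and regulators 1 fell and 0 rose: Creb3l1, a membrane-bound factor activated like Atf6, 2.27-fold (limma, adjusted p = 0.0155). The share called lower was 12.1% for the folding enzymes. For the N-glycosylation genes it was 4% and for the sensors 4.76%, both near the 4.05% of all genes.

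Atf4 is known to drive amino acid synthesis and transport genes. Of 37 such targets tested, 5 fell, 13.5%, and 1 rose, and 28 lay below 0, with a median of -0.40. Over all genes 4.05% were called lower. Chac1, a glutathione-degrading enzyme, read 4.24-fold lower, Gpt2 3.22-fold lower and Got1 3.57-fold lower, the latter pair being aminotransferases (limma, adjusted p = 0.00327, 0.00631 and 0.0190). The milk protein, muscle and Gapdh values given above stand beside these lists too, and their part was not tested.

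The second comparison asks whether tumors differ from lactating glands that carry the same transgene. By limma 0 of 36 members passed, where 2.95% of all genes tested were called, and 1.24% of all genes tested were called higher. At an unadjusted p under 0.05 there was 1 member, 2.78%, against 16.4% of all genes. It was Kdelr3, a receptor for the KDEL retrieval signal, at 106, 71.6 and 91.5 in WAP-SVT/t glands 1, 2 and 3 and 233, 157 and 164 in tumors 1, 2 and 3. All tumors were higher, at a log2 difference of 1.04 ± 0.39 (limma, adjusted p = 0.205). The members' median was -0.01 and that of all genes -0.0042, with 18 of 36 below 0, and 16 of 36 with quantile normalization. Groups did not overlap in 3 lower members (8.33%, all genes 10.9%), Hspa5, Sec63 and Canx, and in 2 higher ones (5.56%, all genes 8.75%), Kdelr3 and Atf4. None of the alternatives run, and no array left out, gave a call here.

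Ssr4 and Xbp1, the largest falls of the first comparison, differed by 0.03 ± 0.25 and 0.05 ± 0.32 between tumors and WAP-SVT/t glands on the log2 scale (limma, adjusted p = 0.973 and 0.964). Intervals of this width do not show that the levels are equal. Among the chaperones 7 of 8 lay below 0, with a median of -0.24 (6 of 8 with quantile normalization), and all 3 degradation members lay above 0, with a median of 0.33. In the pathway lists the called genes were 3 of 33 folding enzymes, all higher, and 1 of 37 Atf4 targets. Over all genes 1.24% were called higher. Plod2 and Plod1, lysyl hydroxylases, rose 5.04-fold and 5.07-fold and the prolyl hydroxylase subunit P4ha1 2.44-fold (limma, adjusted p = 0.00117, 0.00907 and 0.0269). These 3 modify collagen, and the collagen gene Col1a1 read 1053, 1385 and 1022 in WAP-SVT/t glands 1, 2 and 3 and 4332, 1337 and 1039 in tumors 1, 2 and 3. Ddit4, a stress-induced inhibitor of mTOR, rose 4.94-fold (limma, adjusted p = 0.0211).

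Against NMRI glands, which are shared with the first comparison, 5 of 36 members were lower in tumors and 0 higher. This is 13.9%, where 11.7% of all genes tested were lower and 12.9% higher, so that the share called lower was near the background. At an unadjusted p under 0.05 there were 12 members, 33.3%, against 38.2% of all genes. Groups did not overlap in 11 lower members, 30.6% (all genes 21.6%), and in 0 higher ones (all genes 22.4%). The median was -0.41 over the members and 0.02 over all genes, with 29 of 36 below 0, a count that was 24 with quantile normalization and 25 without scaling.

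The log2 falls in tumors were 1.73 ± 0.25 for Ssr4, 1.36 ± 0.26 for Dnajb9, 1.19 ± 0.32 for Xbp1, 1.02 ± 0.20 for Sec63 and 0.60 ± 0.19 for Sec61b (limma, adjusted p = 0.00062, 0.00363, 0.0207, 0.00429 and 0.0387). Sec61b read 3943, 3587 and 3647 in NMRI glands 1, 2 and 3, 2865, 2367 and 2872 in WAP-SVT/t glands 1, 2 and 3 and 2382, 2142 and 2902 in tumors 1, 2 and 3, so that every NMRI gland was highest. Set side by side, the folds against NMRI glands were 3.38 in WAP-SVT/t glands and 3.31 in tumors for Ssr4, 2.37 and 2.29 for Xbp1, 1.88 and 2.56 for Dnajb9 and 1.71 and 2.02 for Sec63. Atf4 and Sec61a1, lower in WAP-SVT/t glands, had differences of -0.44 and -0.58 in tumors (limma, adjusted p = 0.160 and 0.0825).

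Srp14 did not pass, at a log2 difference of -0.67 (limma, adjusted p = 0.0595). It did with the gland number as a block (limma, adjusted p = 0.0265), with the mean over its probe sets, with only these groups' arrays in the fit and without WAP-SVT/t gland 2 or 3 (limma, adjusted p = 0.0399, 0.0305, 0.0447 and 0.0269). Hsp90b1 read 2692, 2044 and 2080 in tumors 1, 2 and 3, at a log2 difference of 0.66 ± 0.29 (limma, adjusted p = 0.119). It passed as higher with quantile normalization and with the Gapdh ratio as covariate (limma, adjusted p = 0.0479 and 0.0280). Dnajb11 passed as lower with quantile normalization (limma, adjusted p = 0.0480). With every probe set on its own, Calr, Sel1l, Srp14 and Spcs2 passed as lower, by sets that do not stand for the gene. For Calr these lay at -0.83 and -0.88 (limma, adjusted p = 0.00664 and 0.00659). For Sel1l, Srp14 and Spcs2 they lay at -1.14, -0.95 and -0.88 (limma, adjusted p = 0.00778, 0.0121 and 0.0413). Ssr4, Dnajb9 and Sec63 passed without any 1 of the 9 arrays. Sec61b passed in 4 of these 9 fits, with adjusted p up to 0.125 by limma. Under 12 other alternatives it did not pass in 5. Xbp1 did not pass without NMRI gland 1 or 2 or tumor 1 or 2, nor with quantile normalization, where its difference was -0.53 (limma, adjusted p = 0.283), nor without the filter on low signals (limma, adjusted p = 0.0904). The count was 3 without NMRI gland 1, NMRI gland 2, tumor 1 or tumor 2.

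The wider lists had more calls in this comparison, as all genes did, with 11.7% called lower and 12.9% higher. Vesicle coat and cargo genes had 14 lower and 1 higher of 56, with Arfgap3, Surf4 and the coatomer subunit Arcn1 5.37-fold, 2.66-fold and 2.16-fold lower (limma, adjusted p = 7.3e-05, 0.00279 and 0.00284). The folding enzymes split, with 7 lower and 6 higher of 33: Plod2 rose 14.6-fold and P4ha1 3.17-fold, and the peptidyl-prolyl isomerase Fkbp11 fell 13.7-fold (limma, adjusted p = 4.5e-06, 0.00117 and 0.00079). Of 20 SRP, receptor and translocon genes 5 were lower and 0 higher, and of 28 degradation genes 7 and 0. Among Atf4 targets 7 were lower and 3 higher of 37. Gpt2 was 4.22-fold lower while Psat1 and Mthfd2, enzymes of serine and folate metabolism, were 2.92-fold and 2.44-fold higher (limma, adjusted p = 0.00093, 0.00233 and 0.00367). Of 25 N-glycosylation genes 2 were lower and 1 higher, and of 21 sensors and regulators 3 and 0. The shares called lower were 8% and 14.3% in these lists, near the 11.7% of all genes. They were 25% in the coat, SRP and degradation lists, 21.2% of folding enzymes and 18.9% of Atf4 targets.

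Lines and tumors were fitted apart from the glands, as 2 classes of 3 arrays, and the spread of the lines includes the differences between them. By limma 0 of 36 members passed, where 2.3% of 7344 genes did, and 5 members, 13.9%, had an unadjusted p under 0.05, against 16.7% of all genes. Xbp1 came nearest. It read 2040 in ME-A, 1213 in ME-B and 2325 in ME-B-T/t, all below the lowest tumor at 4030, with a log2 difference of -1.54 ± 0.30 (limma, adjusted p = 0.0538). Of its 4 probe sets, 2 passed on their own, at -2.08 and -1.60 (limma, adjusted p = 0.0230 and 0.0154). Without ME-A the count was 2: Xbp1 (limma, adjusted p = 0.0187) and Herpud1, at a log2 difference of 1.51 (limma, adjusted p = 0.0221). Jchain, the plasma cell marker, was below the floor in all lines. The 11 measured genes of B and plasma cells summed to 1895 to 2850 in lines, against 1882 to 5544 in tumors. Of these genes, 6 were above the floor in all lines. The part of plasma cells in the Xbp1 values was not tested.

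Groups did not overlap in 5 lower members (13.9%, all genes 12.3%), namely Xbp1, Dnajb9, Srp9, Sdf2l1 and Spcs1, and in 2 higher ones (5.56%, all genes 11.2%), Atf4 and Sec63. Atf4 read 2999 in ME-A, 3102 in ME-B and 4866 in ME-B-T/t, at a log2 difference of 0.71 ± 0.24 (limma, adjusted p = 0.211). The Atf4 target list lay higher in lines than in tumors in 33 of 38 genes, with a median of 0.69 against 0.00 over all genes, and 2 of them, the tRNA ligase genes Aars and Gars, rose 3.52-fold and 2.07-fold (limma, adjusted p = 0.0132 and 0.0324). The cargo gene Tmed3 was 2.61-fold lower (limma, adjusted p = 0.0206).

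Between single lines there is no replicate and no test, and folds of 2 or more were counted over 7945 genes. ME-B-T/t exceeded ME-B in 2 of 36 members, 5.56%, and was lower in 1, 2.78%, where 7.51% of all genes were higher and 4.88% lower. Ddit3 stood out by its level. It read 208 in ME-A, 187 in ME-B and 1232 in ME-B-T/t, 6.58-fold above ME-B, while the other 11 arrays of the series lay between 82.9 and 325. Edem1 read 307 in ME-A, 276 in ME-B and 830 in ME-B-T/t, 3.00-fold above ME-B, and the tumors covered 312 to 805. Creld2, an ER stress-induced isomerase-like protein, read 447 in ME-A, 557 in ME-B and 186 in ME-B-T/t, and was 3.00-fold lower in ME-B-T/t than in ME-B.

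Hspa5 read 3316 in ME-A, 5787 in ME-B and 3590 in ME-B-T/t. Of the 13 chaperones and isomerases 9 were lower in ME-B-T/t than in ME-B and 4 higher, and 1 of them, Creld2, reached 2-fold. Dnajc3 was 1.90-fold lower and Dnajb9 1.65-fold higher. Xbp1 and Atf4 were 1.92-fold and 1.57-fold higher in ME-B-T/t.

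Like Ddit3, many known targets of Atf4 were higher in ME-B-T/t than in ME-B, which is a fact of 2 arrays. Of 39 with a signal in the lines, 17 were 2-fold or more above ME-B and 0 below. Over all genes these shares were 7.51% and 4.88%. The median log2 difference was 0.95, against 0.04 over all genes. The largest folds, named after their values were seen, were Trib3, a pseudokinase induced by Atf4 and Ddit3, at 105 in ME-B and 1385 in ME-B-T/t, 13.2-fold, Gpt2 at 78.0 and 524, 6.72-fold, and the lipoprotein receptor gene Vldlr at 102 and 460, 4.49-fold. The asparagine synthetase gene Asns, a classical target, read 1639 and 3606, 2.20-fold. ME-A read 747 for Trib3, 156 for Gpt2 and 334 for Vldlr, all above ME-B, and 1202 for Asns, below ME-B. Its Ddit3 signal was 208, near the 187 of ME-B. ME-B was the lowest line for Trib3, Gpt2 and Vldlr, with 1 array per line. Whether these targets and Ddit3 go together was not tested.

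**Figure D5:**
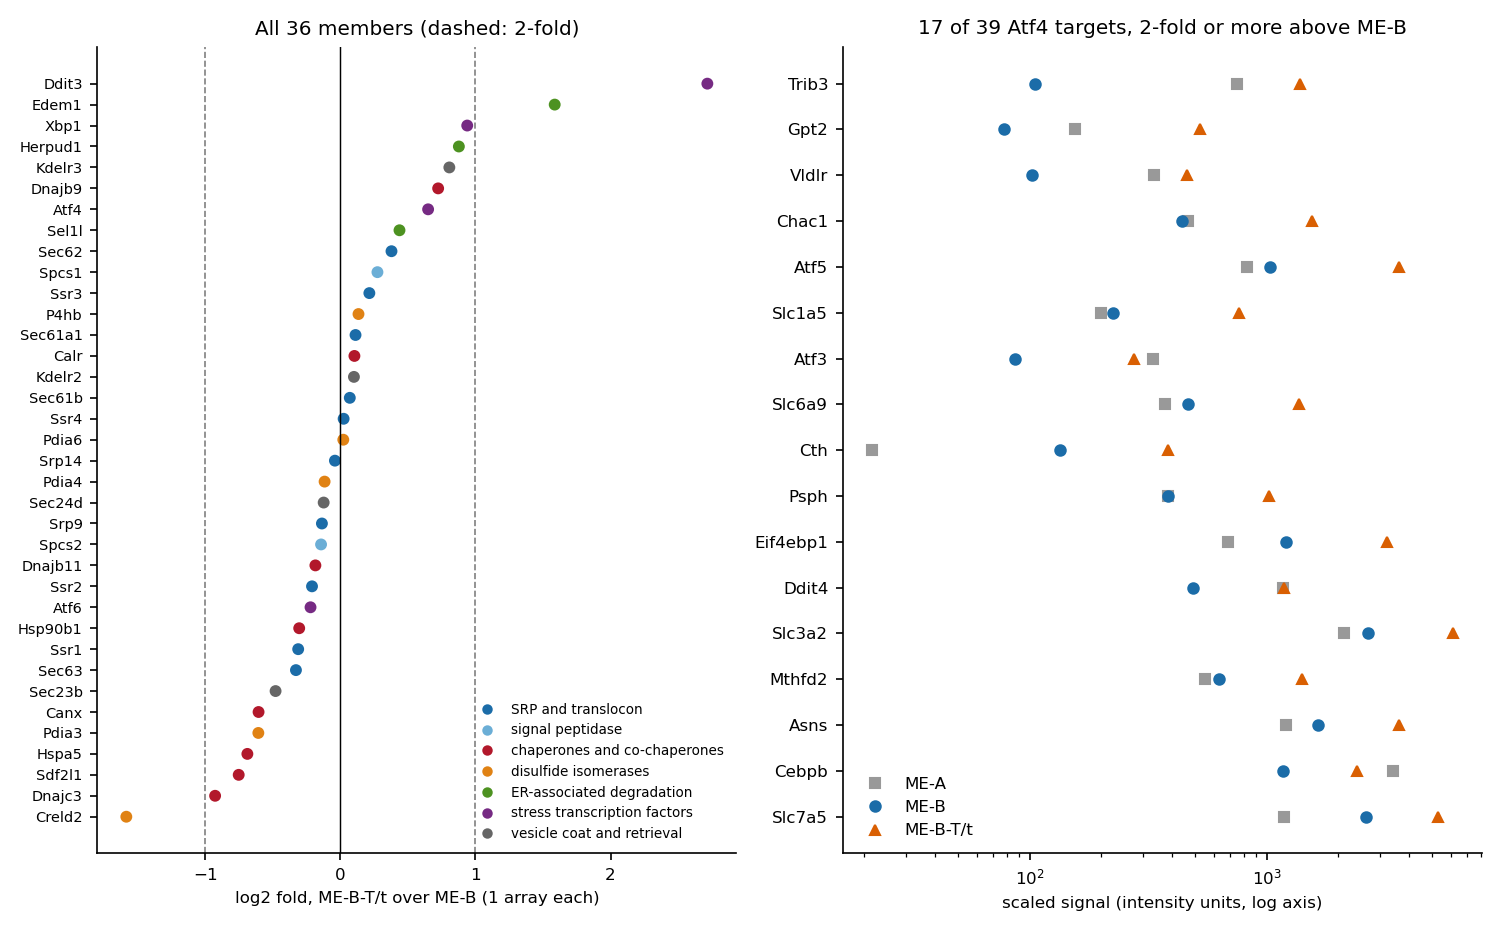
Left, log2 fold of ME-B-T/t over ME-B (x axis, 1 array each) for the 36 members, colored by role, with dashed lines at 2-fold; Ddit3 and Edem1 lie past it on the right and Creld2 on the left. Right, scaled signal (log axis) of the 17 Atf4 targets that were 2-fold or more higher in ME-B-T/t (triangles) than in ME-B (circles), with ME-A as squares.

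ME-A differed from both ME-B lines by 2-fold or more in 1 member, which was lower (2.78%, all genes 6.52%), and in 0 higher ones (all genes 7.04%). The member was Herpud1, at 253 in ME-A, 863 in ME-B and 1585 in ME-B-T/t, with all tumors between 397 and 418. Its promoter holds the second form of the stress element, ERSE-II, the letters ATTGG and CCACG with 1 base between them, which 0.037% of genes held (10 genes), and a C/EBP-ATF response element, TTGCATCA, held by 0.918% of genes. Of the 33 members searched it alone held either, and its stretch is shown for that reason, with both elements in capitals:
Herpud1 (chr8:94386305-94386399, plus strand): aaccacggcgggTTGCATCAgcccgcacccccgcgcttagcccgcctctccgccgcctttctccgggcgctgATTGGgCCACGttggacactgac
Xbp1 and Atf6 are known to act through the first of these and Atf4 through the second. No binding was measured on these arrays.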

How the data were processed

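The deposited values are MAS5 probe set signals in intensity units, which the authors made for 22690 probe sets on each of 12 arrays, per the submitters' processing notes. The version and scaling target of MAS5 were not stated there or in the labels. As deposited, trimmed means (2% cut at each end) lay within 1.19-fold of each other. Each array was scaled to their mean without the 64 control probe sets. A floor of 57.4, percentile 30 of all pooled signals, replaced lower values before log2 was taken. Probe sets were named by the platform's table: 20380 named 1 gene, 691 several and 1555 none, and only the first were used. The set with the highest mean log2 signal stood for its gene, and genes needed 3 or more arrays over 139.9, the median of all pooled signals. Sec61a1 was read by another probe set in the fit of lines and tumors than in that of tissues, and Sec61a1, Calr and Spcs1 were in the folds between lines.

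The test was that of limma 3.58.1, run in R 4.3.3 (lmFit, eBayes with an intensity trend, two-sided, Benjamini-Hochberg over all genes). The 9 tissue arrays shared 1 fit with 6 residual degrees of freedom, and lines and tumors another with 4. Per array, 67.7% to 72.6% of probe sets exceeded the floor. The small number of arrays limits the precision. The labels number NMRI and WAP-SVT/t glands alike. Deviations from the group means correlated by 0.222, 0.372 and 0.372 for equal numbers 1, 2 and 3 and by -0.340 to 0.059 otherwise. The labels do not say whether equal numbers mean pairs. The Gapdh ratios ranked alike by number in both groups of glands, so pairs, batches and RNA integrity cannot be told apart. The main fits used the group only, and the number served as a block in an alternative. Promoters are RefSeq sequences of GRCm38.p6. Figures were drawn with matplotlib 3.10.9.

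Alternatives were other scaling, floor, filter, choice of probe set, variance model, arrays in the fit, the gland number as a block and each array left out. All members were named by role, with each array's value for members that passed or reached 2-fold and for Xbp1, Atf4, Hspa5 and Ddit3, and up to 3 called genes with the smallest p per pathway list. Members and lists were chosen with earlier results of these data known. The fit was also run on simulated data with planted changes larger than that of any called member. That run does not show how the fit performs at the members' sizes.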

Additional observations from a re-analysis of the deposited data

How the results depend on the processing

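The 6 members called in WAP-SVT/t against NMRI glands became 3 with quantile normalization and 3 without scaling (2 lower and 1 higher, Hsp90b1, in both), 3 without the filter, 2 with the mean over a gene's probe sets, 3 without the intensity trend, 2 with only these 6 arrays in the fit and 3 without both glands numbered 3, an alternative chosen after seeing the data. Leaving out 1 array gave 1 to 5. Without scaling the median of all genes was 0.11 and that of the members -0.28. With the gland number as a block 8 members passed, 7 lower and 1, Hsp90b1, higher. With this block 6 passed in tumors against NMRI glands and 0 in tumors against WAP-SVT/t glands. Beside Hsp90b1, P4hb and Srp14 the block changed no call. Ssr4 passed under every alternative in both comparisons with NMRI glands. Tumors against NMRI glands had 5, with 3 to 6 when 1 array was left out and 9 with every probe set on its own. Tumors against WAP-SVT/t glands stayed at 0 to 0. Lines against tumors had 0, and 1, Xbp1, with the filter by group, with the mean over probe sets, with every probe set on its own and with all 12 arrays, and 0 to 2 without 1 array. At 1.5-fold, ME-B-T/t differed from ME-B in 13 members (7 higher, 6 lower) and ME-A from both ME-B lines in 9 (6 lower, 3 higher), against 3 and 1 at 2-fold. No called value changed sign. The members' median in tumors against WAP-SVT/t glands, -0.01, was 0.05 with quantile normalization and 0.08 with the mean over probe sets, and the isomerases' median in tumors against NMRI glands went from -0.12 to 0.02 with quantile normalization. The cause of these changes was not tested, except that left-out arrays leave fewer samples. Over all genes, calls in tumors against WAP-SVT/t glands were 233, and 71 without the filter, 124 with only these groups' arrays and 101 with the Gapdh ratio as covariate; in lines against tumors 169, and 91 without the filter and 429 with all 12 arrays. Signal over background limits Kdelr3, which was below the floor on 1 array.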

Other observations

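Of 35 further folding enzymes with a signal in the lines, 10 were 2-fold or more lower in ME-A than in both ME-B lines and 0 higher, where 6.52% of all genes were lower and 7.04% higher. The 10 were Serpinh1, P4ha1, Plod1, Crtap, Ppic, Pdia5, Rcn1, Rcn2, Fkbp7 and Fkbp9. The collagen chaperone Serpinh1 read 1092 in ME-A, 5486 in ME-B and 6449 in ME-B-T/t, the prolyl hydroxylase subunit P4ha1 128, 1319 and 798, and Crtap, a part of the prolyl 3-hydroxylase complex, 326, 1597 and 1648. Col1a1 itself read 5.77, 143 and 1323. These genes were named after their values were seen, and each value is 1 array.

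Of 23 further sensors and regulators with a signal in the lines, 3 were 2-fold or more higher in ME-B-T/t than in ME-B and 0 lower. Over all genes 7.51% were higher and 4.88% lower. Eif2ak2, the kinase that senses double-stranded RNA and shares its substrate with Perk, read 433 in ME-A, 127 in ME-B and 486 in ME-B-T/t. Eif2ak4, the kinase that senses uncharged tRNA, read 80.4 in ME-B and 219 in ME-B-T/t and was below the floor in ME-A. Creb3l2 read 206 and 481.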
